A study of Drosophila melanogaster with 3 samples.

Results

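Antioxidant enzymes were described here through 6 genes of Drosophila melanogaster, chosen by name: Cat, Sod, Sod2, GstD1, GstS1 and Trxr-1. All 6 were present under these symbols among the 15682 genes listed, and the rule uses no measured value, though the genes were chosen with earlier results of these data known. In current RefSeq naming Sod is Sod1 and Trxr-1 is Trxr1. Messenger RNA was sequenced from 3 libraries of a single group: males aged 10 days with RNAi against Ptx1, the fly Pitx gene, in tissue labelled skeletal muscle. Their titles name Mhc-Gal4, a driver that places RNAi in muscle through a myosin heavy chain promoter, and write the RNAi as PtxRNAi2. The libraries are labelled as separate samples, without saying whether they came from separate animals or pools, so the spread between them may be partly technical. The series names control libraries of another series as its reference; these were not used here, and no effect of the RNAi on any gene is given.

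Superoxide dismutases turn superoxide into hydrogen peroxide, which catalase, peroxidases and peroxiredoxins then remove. Insects lack glutathione reductase, so in flies thioredoxin reductase supplies electrons to peroxiredoxins through thioredoxin and also keeps glutathione reduced. Glutathione transferases couple glutathione to foreign compounds and to products of lipid peroxidation. Muscle makes superoxide in its dense mitochondria, and this set of enzymes is often followed in aging flies.

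The libraries held 35988267, 50794384 and 52675322 gene counts (libraries 1, 2 and 3), and 9579 genes were detected, that is, reached 1 CPM (a count scaled to a library total of 1000000 gene counts) in every library. All 11 muscle markers on the list used here were among them, with Mhc at 4200, 4901 and 4376 CPM and the projectin gene bt at 2544, 4452 and 3566 CPM. The flight muscle actin gene Act88F, named because of its values, had the lowest mean of the 11, at 102 CPM. RNA of other tissues was present as well. The 8 gut markers summed to 12969, 10758 and 11131 CPM, the 8 fat body markers to 8633, 9108 and 9136 CPM, and the 7 neuron markers to 727, 1126 and 967 CPM. All 8 gut and all 7 neuron markers were detected, and 6 of 8 fat body markers. Those not detected, named because of their values, were the yolk protein gene Yp2 and Fbp1, at means of 0.821 and 0.0470 CPM in these males. Of the blood cell and of the Malpighian tubule markers, 5 of 6 were detected in each list. The markers with most CPM averaged 2595 CPM for alphaTry and 2185 CPM for Mal-A1 in the gut list, 5717 CPM for Rfabg and 2126 CPM for CG3523 in the fat body list, and 322 CPM for Syt1 and 254 CPM for n-syb in the neuron list. Blood cell markers were led by crq and Hml, at means of 133 and 115 CPM, and Malpighian tubule markers by Ncc69 and Oat, at 130 and 35.0 CPM. Of 5 testis markers 1 was detected, twe at 1.48 CPM, with Mst87F at 0.368 CPM. The tissue in which the antioxidant transcripts lay is therefore not known from these libraries. In such bulk RNA, fewer cells of a type and less RNA per cell cannot be told apart.

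All 6 antioxidant genes were detected in every library, with between 12232 and 45364 counts per gene and library. Together they held 0.309%, 0.277% and 0.285% of gene counts in libraries 1, 2 and 3, a mean of 0.290 ± 0.0164% (SD, n = 3). Library 1 was the highest for 5 of the 6 genes, as it was for 43.7% of all detected genes, and the lowest for GstS1. Of the 5, 4 were lowest in library 2. Counts were not divided by transcript length, so the values of different genes are not ranked against each other here.

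Cat encodes catalase, the peroxisomal enzyme that splits hydrogen peroxide into water and oxygen. It stood at 633, 619 and 612 CPM in libraries 1, 2 and 3, with a mean of 621 ± 10.4 CPM (SD, n = 3). The 3 values lay close together, and the coefficient of variation (CV, the SD as a percentage of the mean) was 1.68%. Among 544 genes within 2-fold of its mean level, 36 had a smaller CV than Cat, and their median CV was 7.61%. Library 1 exceeded library 3 by a factor of 1.03 (exact 95% interval 1.02 to 1.05, covering counting error only).

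The superoxide dismutase genes had a wider spread. Sod, which encodes the cytosolic copper-zinc enzyme, stood at 436, 369 and 387 CPM in libraries 1, 2 and 3, a mean of 397 ± 35.1 CPM (SD, n = 3). Library 1 was the highest of these, and libraries 2 and 3 lay near each other. Sod2, which encodes the mitochondrial manganese enzyme, stood at 359, 317 and 328 CPM, a mean of 335 ± 21.9 CPM (SD, n = 3). It had the same order of libraries as Sod, with a smaller gap. The highest library exceeded the lowest by a factor of 1.18 for Sod (exact 95% interval 1.16 to 1.21) and of 1.13 for Sod2 (1.11 to 1.16). The count ratio of Sod to Sod2, which does not depend on library scaling, was 1.21, 1.16 and 1.18.

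The glutathione transferase genes GstD1 and GstS1 had opposite orders of libraries 1 and 2. GstD1 encodes a delta-class enzyme known in flies for its action on insecticides and as a reporter of antioxidant gene induction. It stood at 969, 809 and 861 CPM in libraries 1, 2 and 3, a mean of 880 ± 81.8 CPM (SD, n = 3), so that library 1 was highest. GstS1 encodes the sigma-class enzyme, which is abundant in fly flight muscle and acts on lipid peroxidation products. It stood at 340, 358 and 357 CPM, a mean of 352 ± 10.3 CPM (SD, n = 3), with library 1 lowest and libraries 2 and 3 almost equal. The count ratio of GstD1 to GstS1 was 2.85, 2.26 and 2.41, the most variable of the 15 ratios between the 6 genes, with a CV of 12.3%.

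Trxr-1 encodes thioredoxin reductase, in cytosolic and mitochondrial forms that gene-level counts do not separate. It stood at 350, 299 and 308 CPM in libraries 1, 2 and 3, a mean of 319 ± 27.2 CPM (SD, n = 3). Library 1 was again highest, and the highest library exceeded the lowest by a factor of 1.17 (exact 95% interval 1.14 to 1.20). In RefSeq's Release 6 plus ISO1 MT annotation, Trxr-1 overlaps the gene sni, which stood at a mean of 24.3 CPM, and none of the other 5 genes overlaps an annotated gene. GstD1 lies next to its family member GstD9. Any reads that fit several delta-class genes would make the count of GstD1 uncertain, and this was not examined. The second thioredoxin reductase gene, Trxr-2, had 1 count in library 1 and 0 in libraries 2 and 3; a count of 0 allows up to 0.0591 and 0.0570 CPM there, taken as 3 counts of the library total.

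**Figure D1:**
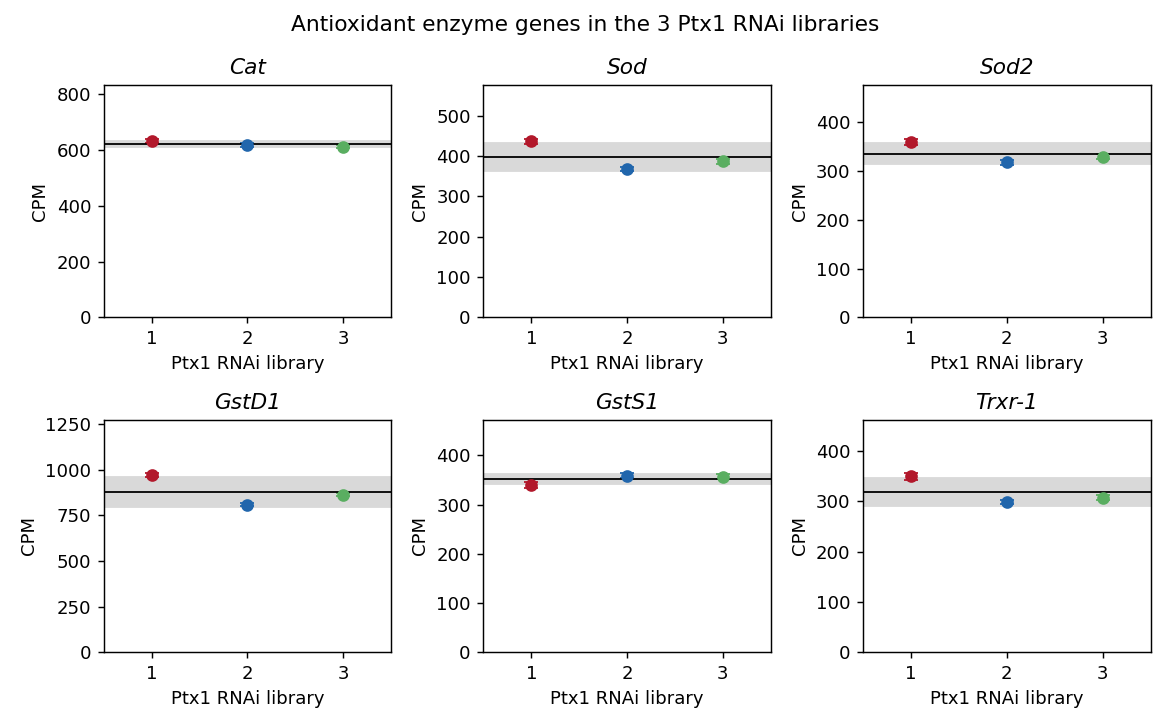
CPM of each antioxidant enzyme gene in Ptx1 RNAi libraries 1, 2 and 3. Points are libraries with exact 95% counting intervals, the line is the mean and the grey band 1 SD (n = 3). Library 1 was highest for 5 genes, as for 43.7% of all detected genes, and lowest for GstS1.

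Set against counting error alone, no interval of the ratio of highest to lowest library held 1 for any of the 6 genes. These libraries were picked by their values, which the intervals do not allow for. The share of all genes with such an interval was not computed, so nothing particular to these 6 genes is read from it. Separate samples are expected to differ by more than that. In an edgeR goodness-of-fit test between the libraries, which allows for the spread of genes of like abundance, 0 of the 6 genes were called variable at an adjusted p below 0.05, and 0 at an unadjusted p below it. Over all 10522 genes tested, 216 were called, or 2.05%, so the absence of calls among 6 genes is close to that background. The unadjusted p in this test was 0.972 for Cat, 0.959 for GstS1, 0.771 for Sod2, 0.647 for Trxr-1, 0.629 for Sod and 0.594 for GstD1, and the Benjamini-Hochberg adjusted p was 0.99996 for each (edgeR). The biological CV that the fit assigned to genes at these levels lay between 13.0% and 13.2%, against CVs of 1.68% for Cat, 2.93% for GstS1, 6.56% for Sod2, 8.55% for Trxr-1, 8.83% for Sod and 9.30% for GstD1. The median CV over all tested genes was 8.48%. Of genes within 2-fold of each mean level, 470 of 768 had a smaller CV than Sod and 534 of 905 than Trxr-1. The same held for 236 of 397 with GstD1, 401 of 859 with Sod2 and 141 of 820 with GstS1. The median CV of such genes lay between 6.96% (for GstS1) and 7.97% (for GstD1), also below the biological CV of the fit. A test that makes no call does not show that the levels were equal.

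**Figure D2:**
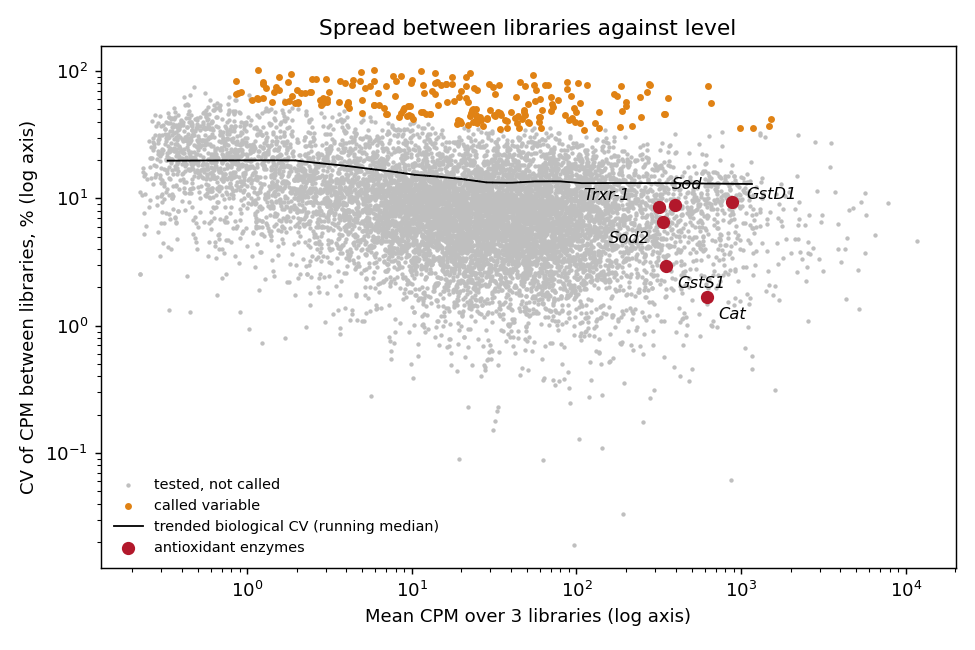
Coefficient of variation of CPM between the 3 Ptx1 RNAi libraries against mean CPM, both on log axes, for 10522 tested genes. Grey points were not called and orange points were called variable. The 6 antioxidant genes (red) lie below the line, which is the biological CV that the fit assigned by abundance, and Cat is the lowest of them at 1.68%. The median CV of genes within 2-fold of each, 6.96% to 7.97%, also lies below the line.

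Relative to each gene's own mean of log2(CPM + 0.5), library 1 deviated by 0.14 for Sod, 0.14 for GstD1, 0.14 for Trxr-1 and 0.10 for Sod2, by 0.03 for Cat and by −0.05 for GstS1. In library 2 the deviations were −0.10, −0.12, −0.09 and −0.08 for Sod, GstD1, Trxr-1 and Sod2, −0.01 for Cat and 0.03 for GstS1. Library 3 lay between −0.05 and 0.02 for all 6 genes. The middle 50% of tested genes in library 1 lay between −0.11 and 0.10, so that Sod, GstD1, Trxr-1 and Sod2 stood just outside it on the high side and Cat and GstS1 inside it.

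**Figure D3:**
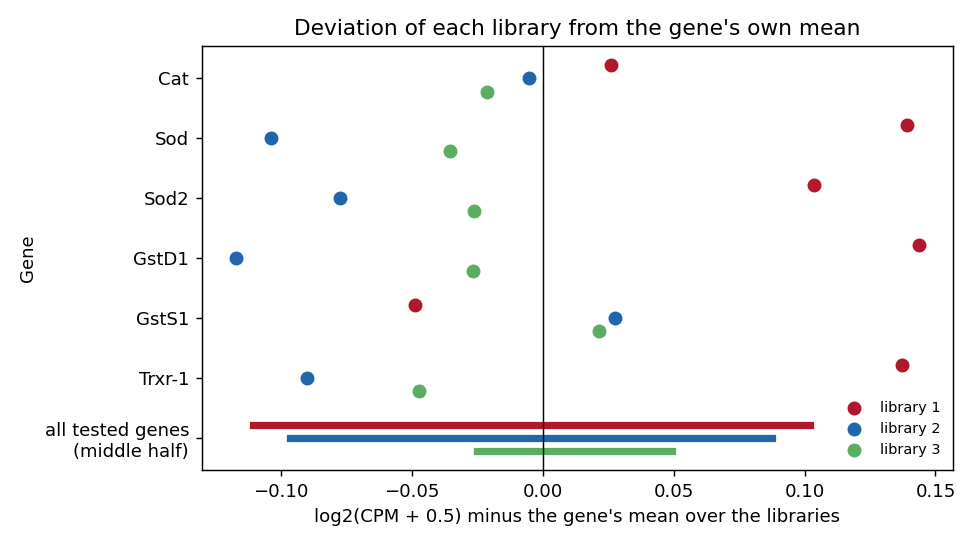
Deviation of each Ptx1 RNAi library from the gene's own mean, as log2(CPM + 0.5), for the 6 antioxidant genes, with the middle 50% of all tested genes as bars. In library 1 the deviations run from −0.05 (GstS1) to 0.14 (GstD1), and GstS1 is the gene whose colours lie in the opposite order.

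Count ratios between the genes restate these deviations without any scaling of libraries. They show the same grouping because they come from the same counts, and are no separate support for it. The 6 ratios among Sod, GstD1, Trxr-1 and Sod2, a group picked after these values were seen, had the smallest CVs of all 15, between 0.816% for Sod to GstD1 and 2.77% for Sod2 to GstD1. The ratio of Sod to GstD1 was 0.450, 0.456 and 0.449 in libraries 1, 2 and 3. Sod to Trxr-1 was nearly as even, at 1.25, 1.23 and 1.26. Ratios with Cat had CVs between 4.59% (with GstS1) and 7.94% (with GstD1), and ratios of GstS1 with Sod, GstD1, Trxr-1 and Sod2 between 9.58% and 12.3%. These are descriptions over 3 libraries, and no test was run on them.

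**Figure D4:**
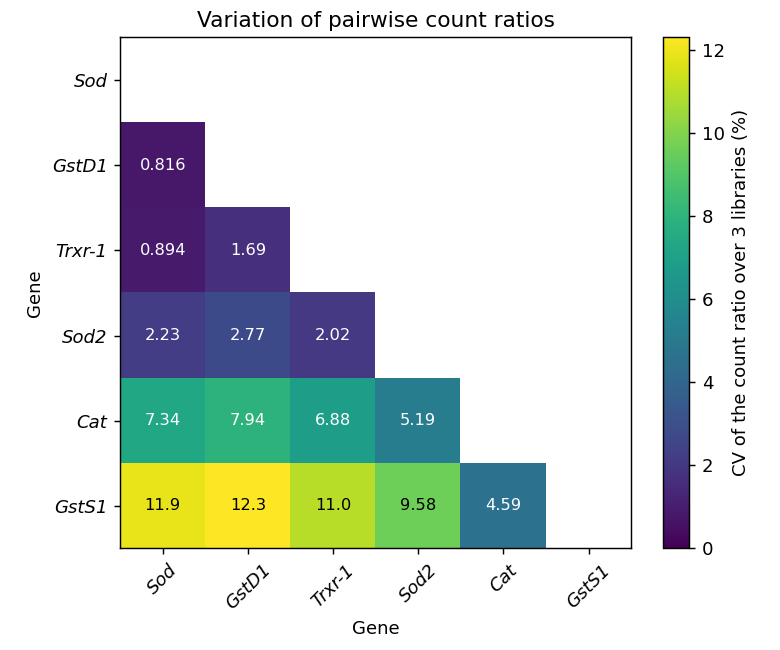
Coefficient of variation, in percent over the 3 Ptx1 RNAi libraries, of the count ratio for each of the 15 pairs of antioxidant genes. The block of Sod, GstD1, Trxr-1 and Sod2 holds values up to 2.77%, and the row of GstS1 holds the highest values, up to 12.3%.

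Many genes outside the set had a pattern as close. The nearest gene to Cat, by the root mean square difference of log2 deviations over the 3 libraries among detected genes within 2-fold of its level, was GlyP, the glycogen phosphorylase gene, at 1101, 1079 and 1063 CPM in libraries 1, 2 and 3 (difference 0.00249). The nearest to Sod was CG7834 (312, 264 and 276 CPM, difference 0.00183) and the nearest to Sod2 the ribosomal protein gene RpS14a (610, 537 and 558 CPM, difference 0.00239). RpS14a has a near-identical copy, so its count is uncertain. CG5177 was nearest to GstD1 (659, 553 and 589 CPM, difference 0.00366), CG13506 to GstS1 (333, 351 and 350 CPM, difference 0.000410) and CG9769 to Trxr-1 (225, 193 and 199 CPM, difference 0.00262). Within a difference of 0.05 there were between 132 genes for Cat and 239 for GstS1, so that likeness over 3 libraries singles out no gene.

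The rest of the redox system was read from 13 lists with 100 matched genes, of which 81 (81.0%) were detected, against 61.1% of all listed genes. Of 86 redox genes tested, 0 were called variable (edgeR, adjusted p below 0.05), beside the 2.05% of all genes. Library 1 was the highest for 48 of the 86 (55.8%) and for 43.0% of all tested genes. It was the lowest for 31 (36.0%), against 42.5% of all tested genes. The median log2 difference of library 1 minus library 2 was 0.15 over these redox genes, 0.20 over the 6 antioxidant genes and 0.02 over all tested genes. For library 1 minus library 3 it was 0.05, 0.15 and −0.01 over the same sets. Libraries 1 and 2, shown by list in the plot of differences between libraries, were picked after the values were seen.

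Of the other genes of the superoxide dismutase list, the extracellular dismutase gene Sod3 stood at 56.3, 54.8 and 56.6 CPM in libraries 1, 2 and 3, and CCS, the copper chaperone for the cytosolic enzyme, at 23.0, 19.5 and 20.9 CPM. Among peroxide-removing genes, PHGPx, a glutathione peroxidase homolog, stood at 820, 639 and 685 CPM, and Irc, the immune-regulated catalase gene, at 164, 172 and 175 CPM. PHGPx thus had the library order of Sod and GstD1, whereas Irc was lowest in library 1 as GstS1 was. Of the 9 entries of the peroxiredoxin list, which also holds the thioredoxin-like gene Txl, 8 were detected, led by the cytosolic Jafrac1 at 442, 386 and 416 CPM and the mitochondrial Prx3 at 70.6, 62.3 and 64.7 CPM.

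In the thioredoxin and glutaredoxin list, 4 of 9 genes were detected. All 5 tested genes were highest in library 1, as were 43.0% of all tested genes. Among the 5, TrxT, named because of its values, was not detected, at 1.08, 0.453 and 0.494 CPM in libraries 1, 2 and 3. Trx-2, the cytosolic thioredoxin that Trxr-1 reduces, stood at 217, 177 and 199 CPM, and the glutaredoxin gene CG14407 (Grx5 in RefSeq) at 166, 134 and 146 CPM. The subunits of glutamate-cysteine ligase, which makes the first step of glutathione synthesis, had opposite library orders: the modifier subunit Gclm stood at 147, 106 and 119 CPM and the catalytic subunit Gclc at 131, 163 and 150 CPM.

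Among other glutathione transferases, 10 of 12 tested epsilon-class genes were highest in library 1, as were GstD1 and 43.0% of all tested genes. In this class CG16936 (GstE12 in RefSeq) stood at 565, 470 and 504 CPM and GstE9 at 241, 204 and 218 CPM. The delta-class relatives of GstD1 summed to 96.1, 81.4 and 88.3 CPM over 10 genes, of which 6 were detected. The neighbouring GstD9 held most of this, at 66.9, 53.6 and 59.9 CPM, and GstD3 stood at 9.53, 12.2 and 11.3 CPM. Of 12 genes of the other classes, 11 were detected, among them the microsomal Mgstl at 241, 197 and 206 CPM and CG1681 (GstT4 in RefSeq) at 229, 240 and 232 CPM.

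NADPH, the electron source of thioredoxin reductase, is supplied among others by malic enzyme and isocitrate dehydrogenase. Men stood at 1039, 948 and 975 CPM in libraries 1, 2 and 3 and Idh at 669, 683 and 678 CPM, and all 6 genes of this list were detected. The methionine sulfoxide reductase genes, which repair oxidized methionine, varied little, with SelR at 162, 154 and 157 CPM and Eip71CD at 111, 107 and 108 CPM. All 10 listed regulators were detected. Their order was the reverse of GstD1's for cnc, which encodes the fly counterpart of the antioxidant regulator NRF2, at 303, 343 and 328 CPM, and for the stress transcription factor gene Xrp1, at 905, 1003 and 947 CPM. The cnc inhibitor gene Keap1, named after its values were seen, stood at 18.3, 20.4 and 20.4 CPM.

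**Figure D5:**
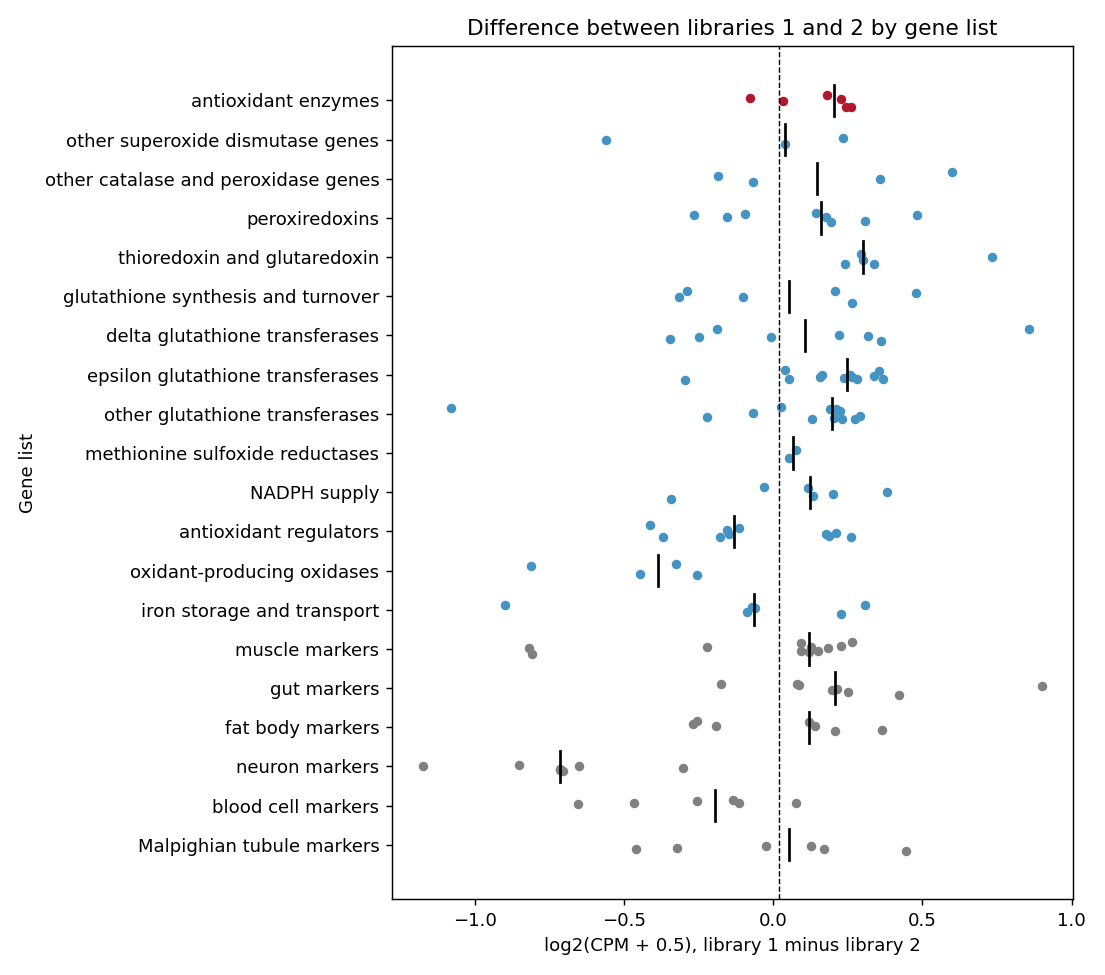
Difference of library 1 minus library 2 in log2(CPM + 0.5) for each tested gene, by list: the 6 antioxidant genes (red), redox lists (blue) and tissue markers (grey); bars are list medians and the dashed line is the median of all tested genes, 0.02. The antioxidant genes have a median of 0.20, gut markers 0.21 and neuron markers −0.71; the testis list, with 1 tested gene, is left out.

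Tissue markers were read in the same libraries. Of the 46 markers tested, the edgeR test called 1 variable, the neuron marker Syx1A, at 14.4, 33.1 and 23.6 CPM in libraries 1, 2 and 3 (adjusted p = 0.0136), beside the 2.05% of all genes. Gut markers had a median log2 difference of library 1 minus library 2 of 0.21. Of these, 7 of 8 were highest in library 1, beside 43.0% of all tested genes. For muscle and fat body markers the medians and the sums differed in sign. The median was 0.12 over the 11 muscle markers, whereas their sum was lowest in library 1, at 18433, 21788 and 20020 CPM, with Mhc, bt and sls lowest there and the other 8 highest. Syx1A and sls are named here because of their values. The median was also 0.12 over the 7 fat body markers tested, and the sum given above was lowest in library 1. Neuron markers had a median of −0.71 and were lowest in library 1 for 7 of 7. Blood cell markers had a median of −0.19 with 5 of 6 lowest there, beside 42.5% of all tested genes. The gut sum had the library of highest level in common with Cat, Sod, Sod2, GstD1 and Trxr-1. The muscle, neuron, blood cell and Malpighian tubule sums were lowest in library 1, as GstS1 was, and highest in library 2. For GstS1, libraries 2 and 3 were almost equal, at 358 and 357 CPM. The blood cell sum was 333, 395 and 377 CPM. The Malpighian tubule sum was 187, 224 and 207 CPM, though the median log2 difference of its markers was 0.05. The fat body sum was also lowest in library 1. Library 1 also had the lowest depth and the highest share of listed counts in genes, 78.0% against 74.9% and 75.2% in libraries 2 and 3. The part of tissue make-up, depth or library quality in these differences was not tested.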

How the data were processed

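Gene expression was measured by RNA-seq in 3 Ptx1 RNAi libraries. Per the labels' protocols, polyadenylated RNA was made into stranded libraries and read as pairs of 100 bases. The deposited values are raw counts per gene symbol; the submitters' processing notes name CASAVA 1.7, BWA, STAR, HTSeq and the mouse build mm9 without roles, so the fly build is unknown here and coordinates are not printed. Use of strand in counting is not given either, which leaves counts of overlapping genes uncertain. Summary rows that name no gene, 22.0% to 25.1% of listed counts, were left out. Count columns of 6 other libraries, which the labels at hand do not describe, took no part in any step.

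CPM was computed here on the sum of gene counts. A planned order of levels per length was not made, because the reference table gives gene spans only. Differences between libraries were tested over all genes with edgeR 4.0.16 (R 4.3.3; TMM, filterByExpr, intercept-only fit, trended dispersion, chi-square goodness of fit, Benjamini-Hochberg adjustment, threshold 0.05), a procedure tested on simulated data. The alternatives were DESeq2 1.42.0 size factors, no filter, a common dispersion, other totals, a detection limit of 5 CPM and leaving out each library. Intervals are exact Clopper-Pearson intervals at 95% from SciPy 1.17.1, and like the limits at a count of 0 they cover counting error only. Of 152 entries in the redox and tissue lists, 151 matched a row, in part through RefSeq synonyms; an entry for a glutaredoxin was corrected after a name clash was found. Named genes were the 6 antioxidant genes, the 2 genes with most CPM in each redox and tissue list, any redox gene called variable, and the nearest gene in pattern to each antioxidant gene. Genes named for another reason are marked, apart from overlapping or adjacent genes and relatives of a member. The 6 genes and the lists were chosen with earlier results of these data known.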

Additional observations from a re-analysis of the deposited data

How the results depend on the processing

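None of the 6 antioxidant genes was called variable with all libraries, with DESeq2 size factors, with no filter on low counts, with a common dispersion or with any 1 library left out (edgeR). Over all genes the calls numbered 216, and 89 to 124 on any pair of libraries, where 1 degree of freedom remains; 106, 85 and 124 of those called without libraries 1, 2 and 3 were among the 216. Of the redox genes, 81 were detected at 1 CPM, 73 at 5 CPM and 81 to 82 with any library left out. Mean levels kept within 1 SD under TMM and DESeq2 scaling. They also did with any library left out, but a mean of 3 values cannot move by 1 SD when 1 is dropped. Nothing about stability is read from that. Leaving the 10 most abundant genes out of the totals makes every total smaller, and all 6 means rose. The mean was then 663 CPM for Cat, 357 CPM for Sod2 and 376 CPM for GstS1, each more than 1 SD above the value with full totals. It was 424 CPM for Sod, 939 CPM for GstD1 and 340 CPM for Trxr-1, which have larger SDs, and these stayed within 1 SD. The summed share was 0.310%. The count of 5 genes highest in library 1 was the same under TMM, DESeq2 and reduced totals, alternatives chosen after seeing the data. No paired analysis was possible because the labels give a single group. With 3 libraries of 1 group and no length correction, neither an effect of the RNAi nor an order of levels between genes can be read from these counts.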

Other observations

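Iron handling, which bears on oxidant formation, was represented by abundant transcripts. The ferritin heavy chain gene Fer1HCH stood at 1288, 1099 and 1157 CPM in libraries 1, 2 and 3, with the library order of GstD1, and the transferrin gene Tsf1 at 2497, 2605 and 2467 CPM. Of 7 iron genes, 6 were detected, of which 2 were highest and 3 lowest in library 1. All 4 genes of the list of oxidant-producing oxidases were lowest in library 1, as were 42.5% of all tested genes, with ry, the xanthine dehydrogenase gene, at 52.9, 66.5 and 58.3 CPM and mol, the maturation factor gene of the oxidase Duox, at 34.4, 41.1 and 38.9 CPM. None of the 4 was called variable (edgeR), at an adjusted p of 0.99996 for each.

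The peroxiredoxin gene Prx5, named after its values were seen, was listed at 0 in all 3 libraries. In RefSeq it is overlapped by CG7215, which was also listed at 0, so these zeros are not read as a lack of transcript.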
